A study of Homo sapiens with 14 samples.

Results

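The unfolded protein response and ER folding genes described here are 38 genes for ER stress sensors, chaperones, disulfide enzymes and degradation factors, taken from a list of symbols, out of 63140 genes in the deposited counts table. All 38 were matched and all 38 passed the filter on low counts, with 65 reads or more in every library. Their RNA was measured by bulk sequencing of HEK293T, an embryonic kidney line of human origin with the SV40 large T antigen, at 24 h after transfection with an RNA duplex. For miR-34a-RS, 4 libraries (replicates 1, 2, 3 and 5) came from cells given a miR-34a duplex whose guide residues 13 and 14 are abasic (rSpacer), with the backbone kept and the base missing. For miR-34a-WT, 5 libraries came from cells given the unmodified duplex of miR-34a, a microRNA induced by p53, and the 5 control libraries from cells given the negative control siRNA AllStars. All groups are the same cell line after transfection, and no untransfected cells are part of the comparison. Whether replicates were separate cultures is not in the labels, so the p-values speak only to the spread among these libraries, and that spread may be technical.

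Proteins that enter the secretory pathway fold in the endoplasmic reticulum (ER). When unfolded protein builds up there, the sensor IRE1 (gene ERN1) cuts XBP1 mRNA so that it encodes an active transcription factor, ATF6 moves to the Golgi and is cut loose by the site-1 and site-2 proteases (MBTPS1 and MBTPS2), and PERK slows translation. XBP1 and ATF6 raise the genes of chaperones such as BiP (HSPA5), of disulfide enzymes and of ER-associated degradation, in which misfolded proteins are carried back to the cytosol and destroyed. A microRNA lowers mRNAs whose 3′ UTR pairs to its seed, guide positions 2 to 8, and pairing of positions 13 to 16 can add to this. The comparisons ask what each duplex did to these transcripts and whether the duplex abasic at positions 13 and 14 differed from the unmodified one.

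The sequences that bear on these genes are the guide and some of its seed matches in the genes whose values are described first. DNAJC10, SYVN1 and HSPA5 have further matches that are not printed. The mature guide, from RefSeq on GRCh38.p14, has its seed in capitals. In the 3′ UTR sites, from GENCODE 29 transcripts on GRCh38 and written as DNA on the transcript strand, capitals mark the seed match, and in HSPA5 also the complement of guide positions 13 to 16 (AGCT).
miR-34a-5p guide, GRCh38.p14 chr1:9151735-9151756, minus strand: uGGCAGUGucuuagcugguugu
XBP1 7mer-m8, GRCh38 chr22:28795329-28795355, minus strand: aaatctgctttcatccagcCACTGCCc
XBP1 7mer-m8, GRCh38 chr22:28795128-28795154, minus strand: cccttttccttgactattaCACTGCCt
CREB3L2 7mer-A1, GRCh38 chr7:137880237-137880263, minus strand: tccctcccttcctttctcttACTGCCA
DNAJC10 8mer, GRCh38 chr2:182783439-182783465, plus strand: aaaaaaatatttcagcagcCACTGCCA
SYVN1 7mer-m8, GRCh38 chr11:65127680-65127706, minus strand: acctgtctcacccagcagcCACTGCCc
HSPA5 7mer-m8, GRCh38 chr9:125235080-125235106, minus strand: tagacctaggcctcAGCTgCACTGCCc
ERN1 7mer-A1, GRCh38 chr17:64039303-64039329, minus strand: tttagctttatattttataaACTGCCA

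Total counts ranged from 22.2 to 36.3 M per library, and 18321 genes were tested. PAX2, LHX1, NEFM, NEFL and INA, which HEK293 cells are generally known to express, passed the filter, and the 5 blood markers and the 6 markers of plasma cells and other secretory cells did not. LHX1, NEFM, NEFL and INA were called lower with both duplexes and PAX2 with miR-34a-WT. INA fell most of these, by 0.64 on the log2 scale with miR-34a-RS and 0.70 with miR-34a-WT. Of 6 fibroblast markers 3 passed and COL1A2, DCN and THY1 did not, with COL1A2 at 0 in all groups. COL1A1 averaged 29.8 CPM with miR-34a-RS, 28.0 with miR-34a-WT and 27.7 in control, COL3A1 averaged 1.75, 1.52 and 2.37 CPM in that order and was called lower with both duplexes, and LUM averaged 0.277, 0.270 and 0.444 CPM. Their part in the results was not tested.

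XBP1 and CREB3L2 were the members that fell most with either duplex, and MBTPS2 and EDEM1 the members that rose most. Against control, XBP1 fell by 1.04 on the log2 scale with miR-34a-RS (SE 0.08) and by 1.35 (SE 0.07) with miR-34a-WT, and CREB3L2 by 0.77 (SE 0.06) with miR-34a-RS and 0.72 (SE 0.05) with miR-34a-WT. MBTPS2 rose by 0.83 (SE 0.06) with miR-34a-RS and 0.88 (SE 0.06) with miR-34a-WT, and EDEM1 by 0.43 (SE 0.05) with miR-34a-RS and 0.56 (SE 0.05) with miR-34a-WT. The chaperone genes that the pathway is best known for, HSPA5 and HSP90B1, did not pass the test in either comparison in the main fit. Some other settings called them lower, as given below. With miR-34a-RS 13 of the 38 genes fell and 4 rose by edgeR's quasi-likelihood test, at a Benjamini-Hochberg adjusted p of 0.05 over all tested genes, against 18.4% and 16.2% of all tested genes. With miR-34a-WT 14 fell and 3 rose, against 21.3% and 18.9% of all tested genes. Either way 44.7% of the members were called, beside 34.6% of all tested genes for miR-34a-RS and 40.2% for miR-34a-WT. With the directions pooled, the share called was thus near the background. The members called were mostly lower, 13 of 17 with miR-34a-RS and 14 of 17 with miR-34a-WT. Over all tested genes falls and rises were closer in number. The cause of this was not tested. With a change of at least 0.5 on the log2 scale as well, 2 members fell and 1 rose with miR-34a-RS, against 6.24% and 3.3% of all tested genes, and 2 fell and 2 rose with miR-34a-WT, against 7.69% and 3.4%. The median log2 fold change of the 38 genes was -0.08 for miR-34a-RS, beside -0.01 over all tested genes, and -0.07 for miR-34a-WT, beside -0.02. The comparisons with control share the control libraries and are not independent of each other. Bulk counts cannot tell fewer cells with a transcript from less of it per cell.

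**Figure D1:**
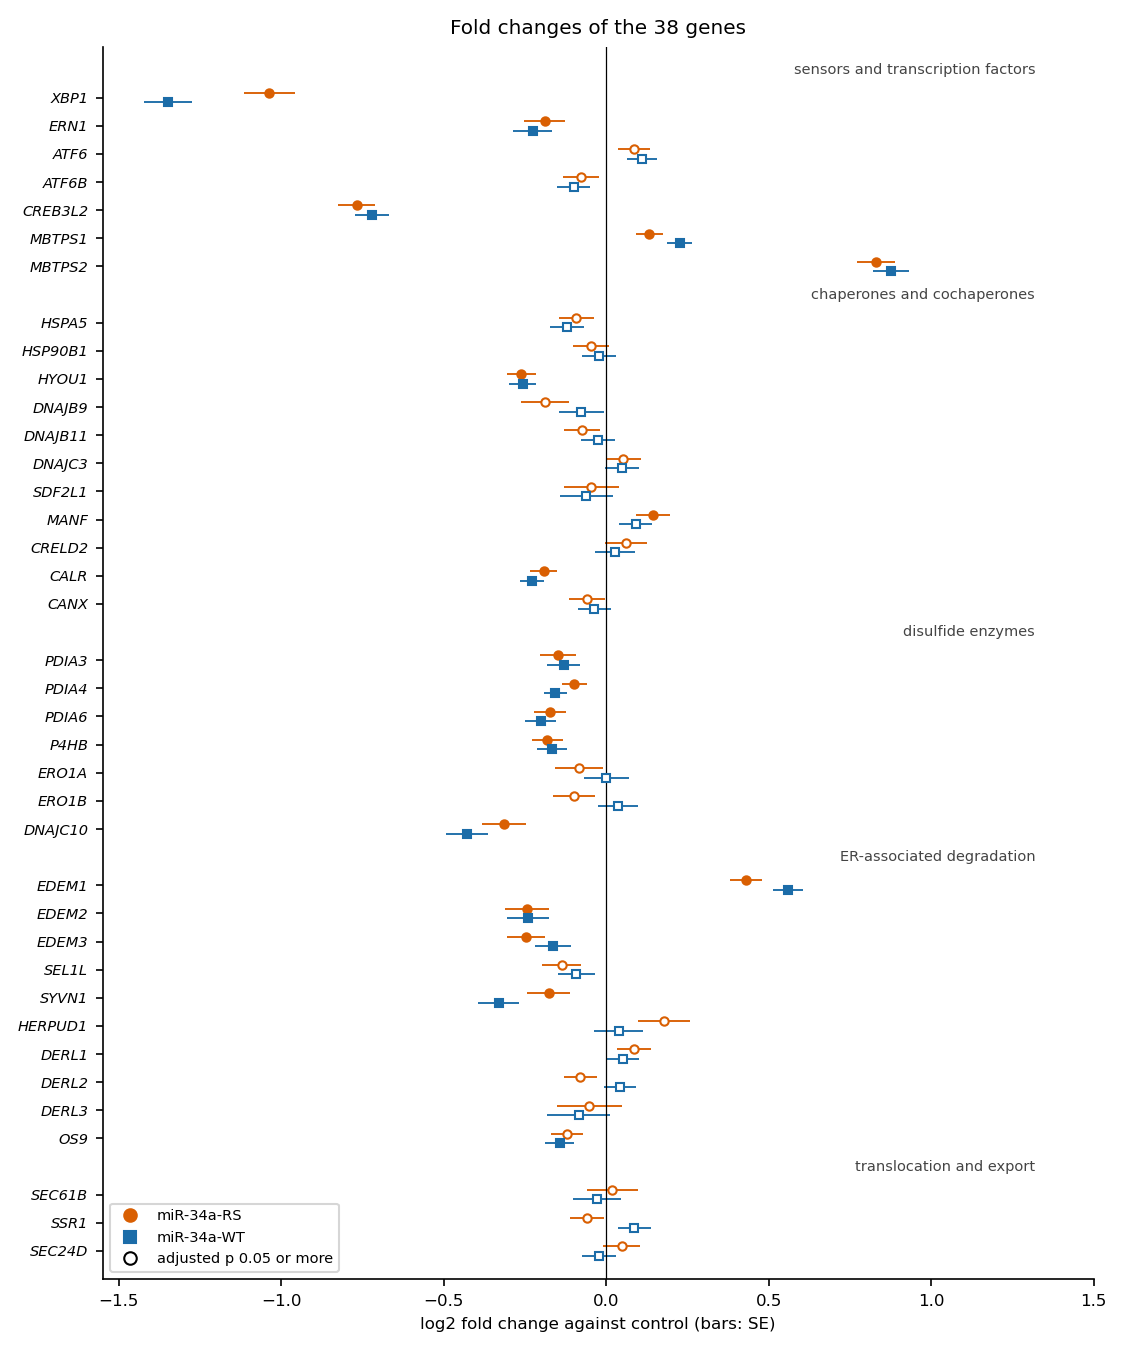
Log2 fold change against control (x axis, bars are SE) of the 38 genes, grouped by role, for miR-34a-RS (circles) and miR-34a-WT (squares), with open symbols where the adjusted p was 0.05 or more. XBP1 and CREB3L2 lie at the left, MBTPS2 and EDEM1 at the right, and most chaperone genes lie near 0.

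XBP1 encodes the transcription factor made after IRE1 cuts its mRNA. Its level was 54.5, 65.8, 50.1 and 51.4 CPM (library-size-scaled counts, with TMM factors) in miR-34a-RS libraries, 44.6, 54.2, 41.2, 39.9 and 43.3 CPM in miR-34a-WT libraries, and 112, 120.4, 116, 109 and 111 CPM in control libraries. Every library of both microRNA groups lay below every control library, and replicate 2 was the highest in all groups. The adjusted p in edgeR's quasi-likelihood test was 1.95e-10 for miR-34a-RS and 4.5e-13 for miR-34a-WT. The counts are per gene, so the cut and uncut forms of XBP1 mRNA are counted together and the change in either cannot be read from them. Both XBP1 matches printed above are of the 7mer-m8 kind. Of the 5 protein-coding XBP1 transcripts in GENCODE 29, the first match lies in the 3′ UTR of 3 and in the coding sequence of 2, and the second in the 3′ UTR of 4 and the coding sequence of 0. Neither has AGCT at 1 to 15 bases upstream.

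CREB3L2 encodes a membrane-bound transcription factor of the secretory pathway that is released by the same proteases as ATF6. Its level was 87.0, 84.1, 78.0 and 81.9 CPM in miR-34a-RS libraries, 89.4, 87.0, 88.3, 76.7 and 85.8 CPM in miR-34a-WT libraries, and 139.5, 155, 143, 141 and 125 CPM in control libraries. No library of either microRNA group reached the lowest control library (adjusted p = 6.36e-11 for miR-34a-RS and 4.18e-11 for miR-34a-WT, edgeR quasi-likelihood test). Its longest 3′ UTR carries a single 7mer-A1 match, in 2 of 7 annotated coding transcripts.

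MBTPS2, the site-2 protease gene, moved the other way. It was 105, 91.7, 85.6 and 90.3 CPM in miR-34a-RS libraries, 100.5, 97.6, 104, 89.1 and 90.4 CPM in miR-34a-WT libraries, and 55.5, 53.2, 53.5, 50.1 and 49.4 CPM in control libraries. All microRNA libraries lay above all control libraries (adjusted p = 2.95e-11 for miR-34a-RS and 3.03e-12 for miR-34a-WT, edgeR quasi-likelihood test). YY2 lies inside MBTPS2 on the same strand and shares 1093 of its 8927 exonic bases, with a mean of 136 reads per library against 2481 for MBTPS2. MBTPS1, the site-1 protease gene, rose less, by 0.13 (SE 0.04) with miR-34a-RS and 0.23 (SE 0.04) with miR-34a-WT, and the call for miR-34a-RS was lost without miR-34a-RS replicate 5 (adjusted p = 0.0518).

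The sensor genes changed by less. ERN1, which encodes IRE1, was 17.7, 18.7, 18.2 and 15.8 CPM in miR-34a-RS libraries, 17.8, 15.95, 18.1, 17.1 and 16.8 CPM in miR-34a-WT libraries, and 20.3, 22.1, 19.2, 19.6 and 19.0 CPM in control libraries. It fell by 0.19 with miR-34a-RS (SE 0.06, adjusted p = 0.0197) and by 0.23 with miR-34a-WT (SE 0.06, adjusted p = 0.00333, edgeR quasi-likelihood test), with no overlap between either group and control. The call for miR-34a-RS was lost without control replicate 2 or miR-34a-RS replicate 5 and in 4 of 16 other settings in all, with adjusted p up to 0.118. ATF6 was 93.0, 91.7, 86.9 and 85.4 CPM in miR-34a-RS libraries, 92.8, 92.3, 92.6, 87.2 and 89.0 CPM in miR-34a-WT libraries, and 86.5, 90.1, 85.0, 81.1 and 77.6 CPM in control libraries, and the groups overlapped. Its log2 fold change was 0.09 (SE 0.05) with miR-34a-RS and 0.11 (SE 0.05, adjusted p = 0.0566) with miR-34a-WT, and 8 of 17 other settings put the second under the threshold. ATF6B, the paralog of ATF6, was at -0.08 (SE 0.05) and -0.10 (SE 0.05) and did not pass.

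**Figure D2:**
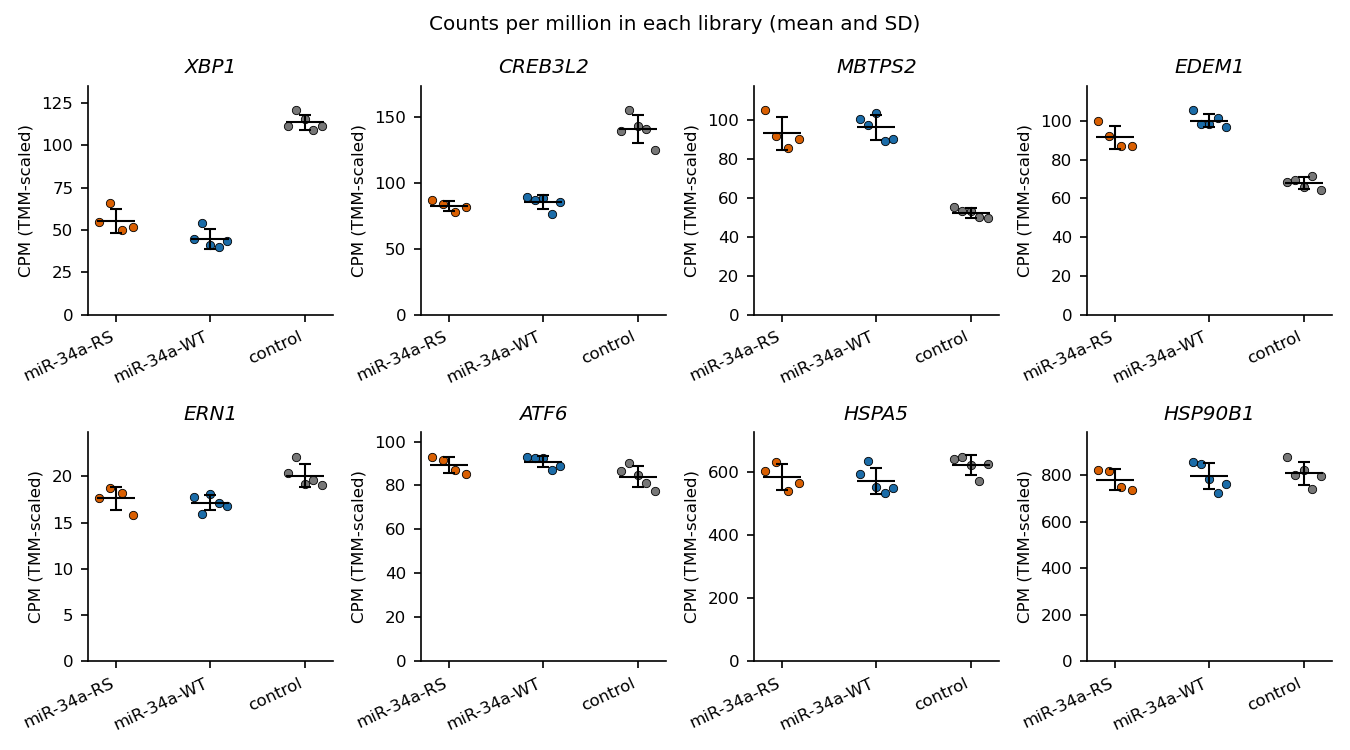
TMM-scaled CPM (y axis, from 0) of 8 genes in each library of miR-34a-RS (n = 4), miR-34a-WT (n = 5) and control (n = 5). Points are libraries, and the bars are mean and SD. The microRNA libraries stand apart from the control libraries for XBP1, CREB3L2, MBTPS2, EDEM1 and ERN1 and overlap with them for ATF6, HSPA5 and HSP90B1.

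Among the 11 chaperone and cochaperone genes, 2 fell with each duplex, HYOU1 and CALR, and 1 rose with miR-34a-RS, MANF. HSPA5 encodes BiP, the main Hsp70 chaperone of the ER and the protein that holds the sensors inactive. It was 602, 631, 539 and 565 CPM in miR-34a-RS libraries, 593, 635, 551, 533 and 549 CPM in miR-34a-WT libraries, and 643, 648, 624, 571 and 627 CPM in control libraries. The groups overlapped, and the log2 fold change was -0.09 (SE 0.05, adjusted p = 0.206) with miR-34a-RS and -0.12 (SE 0.05, adjusted p = 0.0636) with miR-34a-WT in edgeR's quasi-likelihood test, the second of which was under the threshold without control replicate 4 or without miR-34a-WT replicate 2. HSP90B1, which encodes the ER's Hsp90 (GRP94), was 819.6, 817, 749.7 and 735 CPM in miR-34a-RS libraries, 854, 849, 781, 724 and 763 CPM in miR-34a-WT libraries, and 877, 799, 822, 739 and 794 CPM in control libraries. It overlapped between all groups, at a log2 fold change of -0.05 (SE 0.05) with miR-34a-RS and -0.02 (SE 0.05) with miR-34a-WT. With miR-34a-RS HSP90B1 was called lower in 1 of 16 other settings, the replicate block (adjusted p = 0.0436, edgeR quasi-likelihood test).

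HYOU1, a large Hsp70-like chaperone that acts on BiP as a nucleotide exchange factor, ranged from 225 to 250.2 CPM with miR-34a-RS, from 233 to 244 CPM with miR-34a-WT and from 274 to 306 CPM in control. It fell by 0.26 (SE 0.04) with either duplex, with no overlap with control. CALR, which encodes the lectin chaperone calreticulin, ranged from 570.4 to 617 CPM with miR-34a-RS, from 552 to 610.2 CPM with miR-34a-WT and from 680.1 to 696 CPM in control, and fell by 0.19 (SE 0.04) and 0.23 (SE 0.04). CANX, which encodes its membrane-bound relative calnexin, gave -0.06 (SE 0.05) with miR-34a-RS and -0.04 (SE 0.05) with miR-34a-WT and did not pass. MANF, a secreted ER stress protein, rose by 0.14 (SE 0.05, adjusted p = 0.0348) with miR-34a-RS, a call lost without control replicate 4 or 5 or miR-34a-RS replicate 2 (adjusted p up to 0.156), and was at 0.09 (SE 0.05) with miR-34a-WT. The J-domain cochaperone genes DNAJB9, DNAJB11 and DNAJC3 and the genes SDF2L1 and CRELD2 did not pass in either comparison, with log2 fold changes from -0.19 for DNAJB9 to 0.06 for CRELD2, both with miR-34a-RS. DNAJB9 came nearest the threshold, at an adjusted p of 0.0514 with miR-34a-RS, and passed it without control replicate 1 or 4 or without miR-34a-RS replicate 2, and CRELD2 passed without miR-34a-RS replicate 1.

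Of the 7 disulfide enzyme genes 5 fell with each duplex, and they were PDIA3, PDIA4, PDIA6, P4HB and DNAJC10 in both. DNAJC10 encodes ERdj5, a reductase that opens disulfides ahead of degradation, and fell most, by 0.32 (SE 0.07) with miR-34a-RS and 0.43 (SE 0.06) with miR-34a-WT. It ranged from 148 to 191 CPM with miR-34a-RS, from 141 to 167 CPM with miR-34a-WT and from 189 to 224 CPM in control, so that miR-34a-RS and control overlapped. The 4 protein disulfide isomerase genes fell by 0.10 to 0.18 with miR-34a-RS and by 0.13 to 0.20 with miR-34a-WT. In that order PDIA6 fell by 0.17 (SE 0.05) and 0.20 (SE 0.05), and P4HB, which also encodes a subunit of collagen prolyl 4-hydroxylase, by 0.18 (SE 0.05) and 0.17 (SE 0.05). After removal of a per-library trend over GC content and length of the 3′ UTR, P4HB was at -0.03 with miR-34a-WT and its call was lost (adjusted p = 0.367). PDIA4 fell by 0.10 (SE 0.04) with miR-34a-RS, where the call was lost without any 1 of the 9 libraries compared (adjusted p up to 0.46), and by 0.16 (SE 0.04) with miR-34a-WT. PDIA3 fell by 0.15 with miR-34a-RS (SE 0.05), a call lost in 11 of 16 other settings, among them those without control replicate 1, 2 or 3 or miR-34a-RS replicate 1, 3 or 5 (adjusted p up to 0.139). It fell by 0.13 with miR-34a-WT (SE 0.05), a call lost in 11 of 17, among them those without control replicate 1, 2 or 3 or miR-34a-WT replicate 2, 3, 4 or 5 (adjusted p up to 0.203). The oxidase genes ERO1A and ERO1B, whose proteins pass oxidising equivalents to the isomerases, did not pass, at -0.08 (SE 0.07) and -0.10 (SE 0.06) with miR-34a-RS and 0.00 (SE 0.07) and 0.04 (SE 0.06) with miR-34a-WT. Without miR-34a-RS replicate 1, ERO1B passed against control.

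In ER-associated degradation, the EDEM family of mannose-trimming proteins split. EDEM1 was 99.8, 92.3, 87.3 and 86.9 CPM in miR-34a-RS libraries, 105, 98.4, 98.2, 102 and 96.9 CPM in miR-34a-WT libraries, and 68.5, 69.4, 65.9, 71.7 and 64.2 CPM in control libraries. All microRNA libraries lay above all control libraries (adjusted p = 1.6e-07 for miR-34a-RS and 4.99e-10 for miR-34a-WT, edgeR quasi-likelihood test). EDEM2 fell by 0.24 (SE 0.07) with miR-34a-RS and by 0.24 (SE 0.06) with miR-34a-WT, and EDEM3 by 0.25 (SE 0.06) and 0.16 (SE 0.06). The miR-34a-WT call of EDEM3 was lost without control replicate 1 or 3 or miR-34a-WT replicate 2 or 4 (adjusted p up to 0.116).

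SYVN1 encodes HRD1, the ubiquitin ligase at the core of the degradation complex. It ranged from 56.8 to 67.9 CPM with miR-34a-RS, from 50.1 to 58.9 CPM with miR-34a-WT and from 59.4 to 76.2 CPM in control. It fell by 0.33 (SE 0.06) with miR-34a-WT. With miR-34a-RS it was lower by 0.18 on the log2 scale (SE 0.07, adjusted p = 0.0368), a call lost in 13 of 16 other settings, among them those without control replicate 2, 3, 4 or 5 and without miR-34a-RS replicate 1, 2 or 5 (adjusted p up to 0.144). SYVN1 shares 398 exonic bases with FAU on the same strand and 356 with MRPL49 on the opposite strand, both with more reads, so its values are uncertain. SEL1L, the partner that holds SYVN1 in its complex, gave -0.14 (SE 0.06, adjusted p = 0.0824) with miR-34a-RS, which passed without control replicate 5 or without miR-34a-RS replicate 1, and -0.09 (SE 0.06) with miR-34a-WT. OS9, a lectin that brings glycoproteins to that complex, was at -0.12 (SE 0.05, adjusted p = 0.057) with miR-34a-RS. It fell by 0.14 (SE 0.05, adjusted p = 0.0139, edgeR quasi-likelihood test) with miR-34a-WT, a call lost without control replicate 2 or miR-34a-WT replicate 1 or 3 (adjusted p up to 0.229 over 17 settings). HERPUD1, which encodes a stress-induced scaffold of the complex, was at 0.18 (SE 0.08, adjusted p = 0.0876) with miR-34a-RS, which passed without control replicate 2, and at 0.04 (SE 0.08) with miR-34a-WT. The derlin genes DERL1 and DERL2 gave log2 fold changes between -0.08 and 0.08. DERL3 was at 3.0 ± 0.179 CPM with miR-34a-RS (SD, n = 4), 2.94 ± 0.275 with miR-34a-WT (SD, n = 5) and 3.11 ± 0.193 in control (SD, n = 5), and since 2923 of its 3796 exonic bases are shared with SMARCB1 on the opposite strand its level is uncertain.

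The 3 members of translocation and export stayed near control. They are SEC61B, a subunit of the translocon, SSR1, a subunit of the translocon-associated TRAP complex, and SEC24D, a cargo receptor of the COPII coat. In that order their log2 fold changes were 0.02, -0.06 and 0.05 with miR-34a-RS and -0.03, 0.09 and -0.02 with miR-34a-WT (SE from 0.05 to 0.08). None of the 3 passed in the main fit by edgeR's quasi-likelihood test or at an unadjusted p under 0.05. SSR1 was called higher with miR-34a-WT in 2 of 17 other settings, the replicate block and the removal of the 3′ UTR trend.

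**Figure D3:**
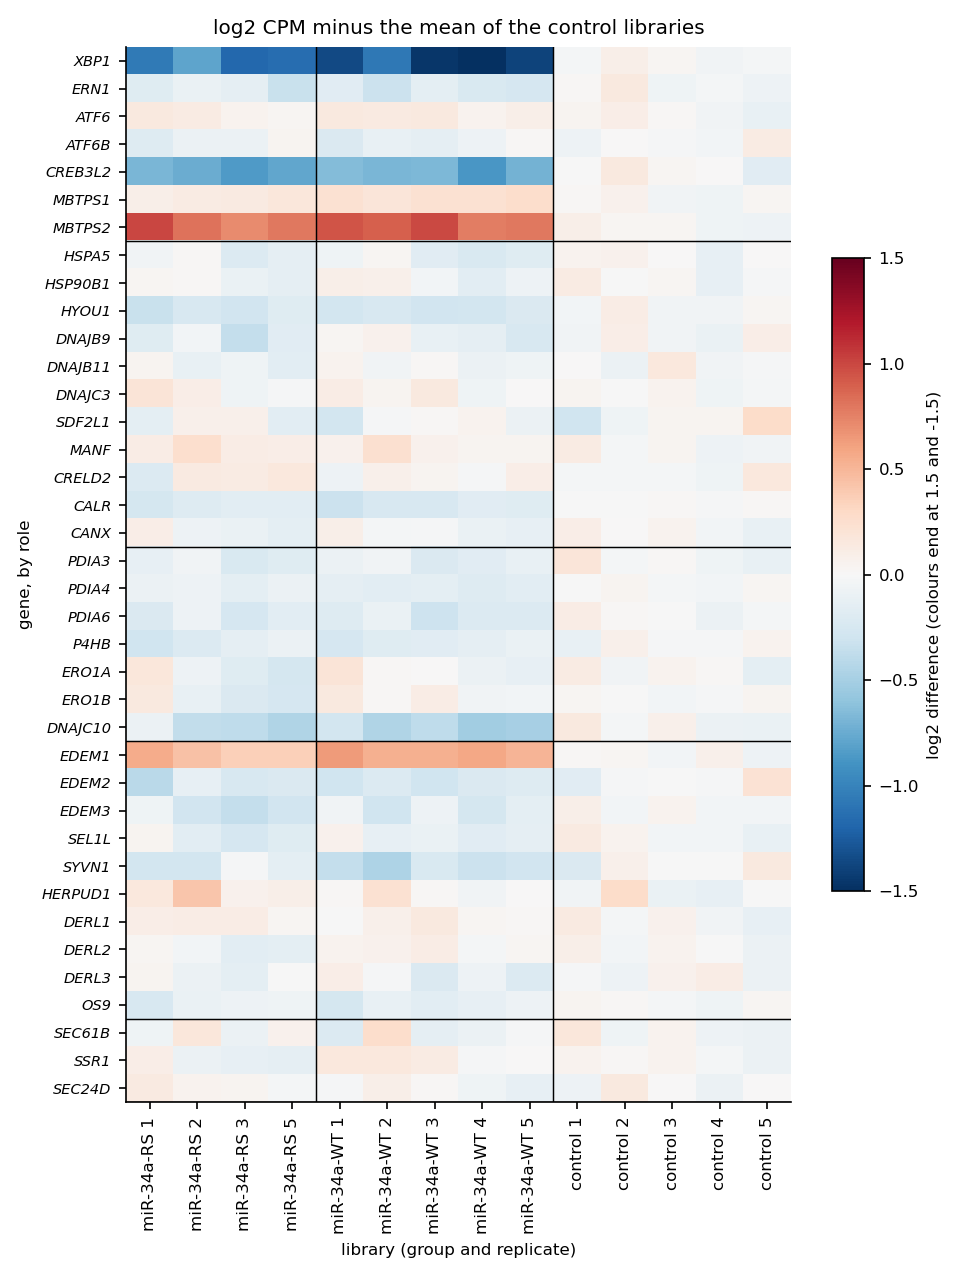
Log2 CPM of each of the 38 genes (rows, lines part the roles) in each of the 14 libraries (columns), minus the mean of the 5 control libraries, from blue (lower) to red (higher). XBP1 and CREB3L2 are blue and MBTPS2 and EDEM1 red in all 9 microRNA libraries, and most other rows stay pale.

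In control cells the members spanned a wide range of levels per length. Counted as CPM per kilobase of exon, CALR was highest at 253 ± 2.53 (SD, n = 5), followed by CANX at 204 ± 11.6, HSP90B1 at 172 ± 10.7 and HSPA5 at 159 ± 7.77, and the last 2 overlapped within 1 SD of their means. XBP1 stood at 37.5 ± 1.47 in control, close to SDF2L1 at 37.8 ± 5.33 and HYOU1 at 36.9 ± 1.82, and the sensor genes were lower, with ATF6 at 10.7 ± 0.614 and ERN1 at 1.85 ± 0.115. The level of XBP1 per kilobase was 14.7 ± 1.87 with miR-34a-WT (SD, n = 5).

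**Figure D4:**
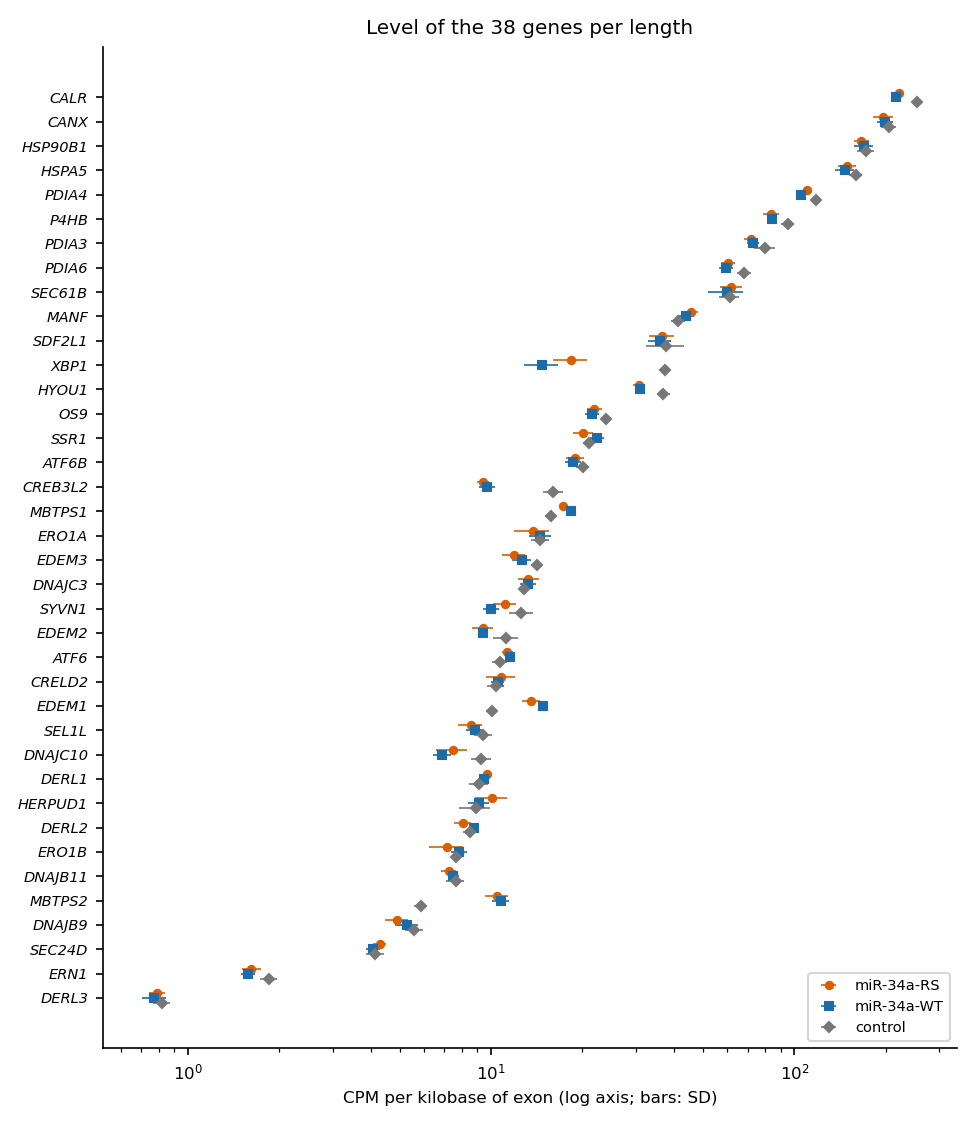
Level of the 38 genes as TMM-scaled CPM per kilobase of exon (log x axis, mean and SD) in miR-34a-RS, miR-34a-WT and control. In control CALR is highest at 253 and DERL3 lowest at 0.819. XBP1, CREB3L2, MBTPS2 and EDEM1 are among the genes whose microRNA symbols stand clear of their control symbol.

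Seed matches were searched in the longest annotated 3′ UTR of each gene. An 8mer is CACTGCCA, a 7mer-m8 CACTGCC, a 7mer-A1 ACTGCCA and a 6mer ACTGCC, the longer words contain the shorter, each gene was classed by its best match, and only the transcript strand was read. Of the 38 genes 5 carried an 8mer or 7mer-m8 match (13.2%), against 17.7% of the 13611 tested genes with a 3′ UTR. They were DNAJC10 with an 8mer and XBP1, SYVN1, HSPA5 and SSR1 with a 7mer-m8. CREB3L2, ERN1 and EDEM3 had a 7mer-A1 at best, ATF6 and DERL3 a 6mer, and 28 members (73.7%) had none, beside 64.9% of all tested genes. In the main fit all 3 members with a 7mer-A1 were lower with both duplexes, as were XBP1, SYVN1 and DNAJC10, whereas HSPA5 and SSR1 did not pass. Of all tested genes of these classes, 50.1% with an 8mer, 36.7% with a 7mer-m8 and 35% with a 7mer-A1 were lower with miR-34a-RS, and 52.2%, 42% and 33.6% with miR-34a-WT. Of the 28 members without a match, 7 were lower under miR-34a-RS and 8 under miR-34a-WT, which is 25% and 28.6%, against 14% and 17.3% of all tested genes without one. MBTPS2 and EDEM1 were among these 28. The 8mer of DNAJC10 lies 6327 bases into a 3′ UTR of 17332 bases, in 1 of its 5 coding transcripts. The 7mer-m8 of SSR1 lies 6125 bases into its 3′ UTR, in 1 of 8. Whether these cells' transcripts hold these matches is not known from gene counts. Among its weaker matches DNAJC10 also has a 7mer-A1 at base 122, in the 3′ UTR of 2 of the 5.

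**Figure D5:**
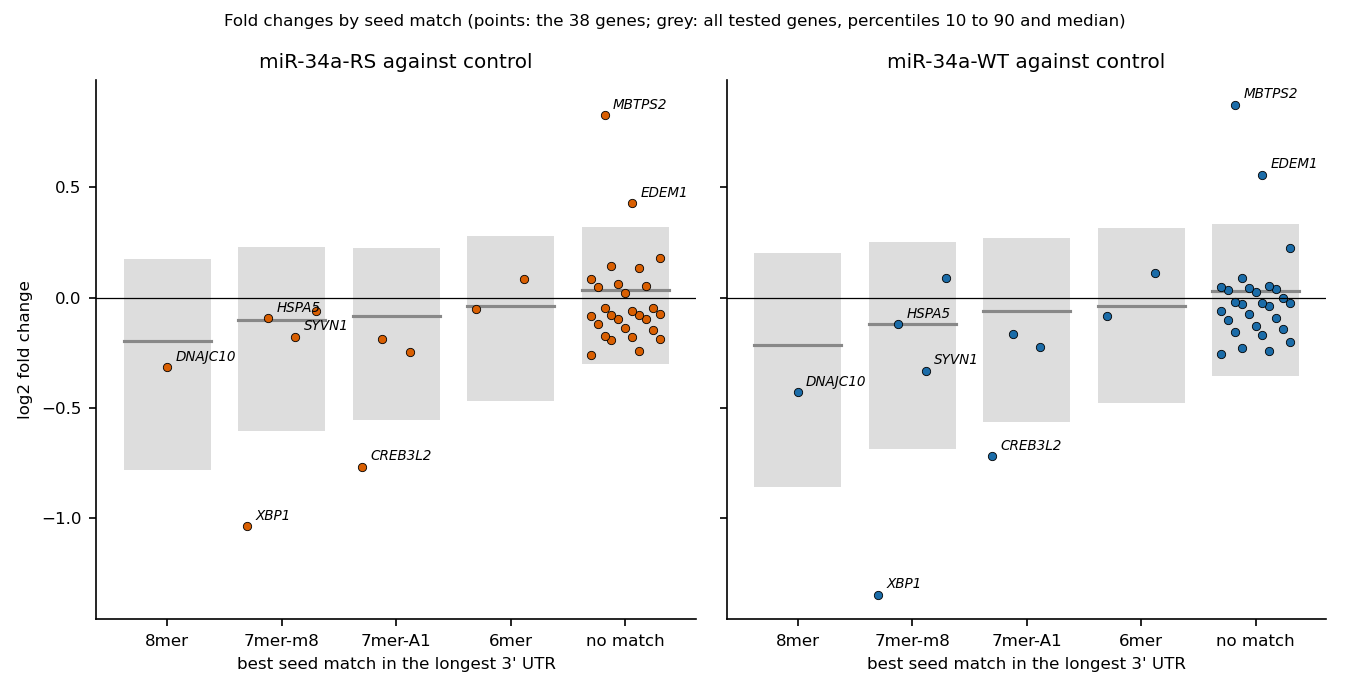
Log2 fold change against control (y axis) by the best seed match in the longest 3′ UTR (x axis), for miR-34a-RS (left) and miR-34a-WT (right). Points are the 38 genes, and grey boxes and lines give percentiles 10 to 90 and the median of all tested genes of that class. XBP1 and CREB3L2 lie below the grey range of their class, and MBTPS2 and EDEM1 above that of genes without a match.

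miR-34a-RS against miR-34a-WT tests directly whether transcripts differed between the duplex abasic at positions 13 and 14 and the unmodified one. Whether a difference came from pairing at those positions was not tested. XBP1 was higher with miR-34a-RS, at 55.4 ± 7.15 CPM (SD, n = 4) against 44.6 ± 5.65 CPM with miR-34a-WT (SD, n = 5), and the log2 fold change was 0.31 (SE 0.08, 95% interval 0.15 to 0.47, Benjamini-Hochberg adjusted p = 0.0423 by edgeR's quasi-likelihood test). The groups overlapped, since miR-34a-RS replicates 3 and 5 lay below miR-34a-WT replicate 2, at 54.2 CPM. Libraries of these 2 groups with the same number shared their deviations from the group means. With the replicate number as a block the log2 fold change was 0.29 (adjusted p = 1.84e-04, edgeR quasi-likelihood test). That fit held all 14 libraries, with the control libraries in the same blocks although their numbers were not taken as pairs. The call was lost in 8 of 16 other settings, a number that includes the block, which kept it. Among the 8 were those without miR-34a-RS replicate 1, 2 or 5 or miR-34a-WT replicate 1, 3, 4 or 5. The weakest value, 0.22 (adjusted p = 0.23, edgeR quasi-likelihood test), came without miR-34a-RS replicate 2. XBP1 was the only one of the 38 members called higher, where 1.03% of all tested genes were, and no member was called lower, where 0.535% were. DESeq2's Wald test gave the same counts of members, and over all genes it called 279 higher and 230 lower of 12990. In edgeR's test 7 of the 38 had an unadjusted p under 0.05, as did 2227 of all 18321 tested genes. In either direction 1.56% of all tested genes were called, and 0.196% were higher and 0.0109% lower by at least 0.5 on the log2 scale, a size no member reached. With the replicate block 2 members were lower, EDEM1 at -0.12 (adjusted p = 0.0418) and SSR1 at -0.16 (adjusted p = 0.00304), both named after their values were seen, and 629 of all 18321 tested genes were lower in that fit.

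For the other 37 genes the log2 fold change of miR-34a-RS against miR-34a-WT lay between -0.15 and 0.15 in the fit without the block. The 95% intervals of that fit reached from -0.27 to 0.30 at the widest. HSPA5 was the member with a supplementary match, AGCT with 1 base between the partners of guide positions 8 and 13, a feature of 1.64% of all tested genes with a 3′ UTR. It differed by 0.03 (SE 0.05, 95% interval -0.08 to 0.14, adjusted p = 0.9) between the duplexes. CREB3L2 and MBTPS2 differed by -0.05 (SE 0.06) and -0.05 (SE 0.06), and SYVN1 by 0.15 (SE 0.07, adjusted p = 0.323). MBTPS1, named after its values were seen, ranged from 171.3 to 181.2 CPM with miR-34a-RS and from 182.0 to 193.0 CPM with miR-34a-WT, so the ranges nearly touched. It did not pass after adjustment (log2 fold change -0.09, SE 0.04, adjusted p = 0.345, edgeR quasi-likelihood test).

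The promoters of the members, the 250 bases before and 50 after each start in RefSeq on GRCh38.p14, were read on both strands for TGACGTGG, a word of the unfolded protein response element (UPRE) that XBP1 and ATF6 are known to bind. Of the 38 genes 34 had an entry, the exceptions being DERL1, DERL3, PDIA3 and SEC24D. The word was found in 2 of them, DNAJC10 and HYOU1. By promoter entry that is 2 of 41 for the members, beside 0.729% of all 35116 promoters. Longer ER stress elements were searched at first but are not reported here, for want of a source for their letters. A promoter without this word may therefore still hold another such element. Both genes fell with both duplexes. Of the 32 members with an entry but without the word, 10 fell and 4 rose with miR-34a-RS, and 11 fell and 3 rose with miR-34a-WT. Whether the word bears on any change was not tested. Both promoters are shown with the word in capitals. A match is a description of these letters and not of binding.
DNAJC10 promoter, GRCh38.p14 chr2:182716007-182716306, plus strand: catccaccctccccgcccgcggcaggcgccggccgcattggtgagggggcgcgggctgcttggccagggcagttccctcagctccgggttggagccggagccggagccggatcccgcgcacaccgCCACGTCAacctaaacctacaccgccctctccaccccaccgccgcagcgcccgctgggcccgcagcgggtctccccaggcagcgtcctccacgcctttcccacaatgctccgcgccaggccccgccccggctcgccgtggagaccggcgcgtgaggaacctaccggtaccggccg
HYOU1 promoter, GRCh38.p14 chr11:119057156-119057455, minus strand: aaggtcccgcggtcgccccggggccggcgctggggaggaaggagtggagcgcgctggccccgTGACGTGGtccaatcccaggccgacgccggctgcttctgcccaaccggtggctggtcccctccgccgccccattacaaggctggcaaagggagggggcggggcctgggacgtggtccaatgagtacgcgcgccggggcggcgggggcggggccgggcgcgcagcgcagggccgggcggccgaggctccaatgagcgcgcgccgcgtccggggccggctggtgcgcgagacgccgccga

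Other genes of ER function were counted in the same way. Of 62 listed genes for the PERK arm, the CREB3 family, folding, degradation, the translocon and the COPII coat, 18 fell and 12 rose with miR-34a-RS (48.4% called, median log2 fold change -0.04), where 18.4% of all tested genes fell and 16.2% rose, and 16 fell and 15 rose with miR-34a-WT (50% called, median -0.03), where 21.3% fell and 18.9% rose. These shares of all tested genes are also the background of the groups that follow. Among the 16 folding and glycan quality control genes 10 fell and 1 rose with miR-34a-RS, and 7 fell and 1 rose with miR-34a-WT. Of 9 COPII coat genes 4 rose with each duplex, while 2 fell with miR-34a-RS and 1 with miR-34a-WT. SEC24A, a cargo receptor, was 87.2 ± 8.0 CPM with miR-34a-RS (SD, n = 4), 88.3 ± 5.19 with miR-34a-WT (SD, n = 5) and 52.4 ± 2.07 in control (SD, n = 5), and rose on the log2 scale by 0.73 (SE 0.06) and 0.75 (SE 0.05), and SEC23B, of the inner coat, rose by 0.40 (SE 0.04) and 0.41 (SE 0.04).

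In the same order, miR-34a-RS and then miR-34a-WT against control, the signal peptidase gene SPCS2 fell by 0.60 (SE 0.07) and 0.59 (SE 0.07), the translocon gene SEC61A1 by 0.33 (SE 0.04) and 0.35 (SE 0.04) and the degradation factor FAF2 by 0.37 (SE 0.04) and 0.32 (SE 0.04), and UBE2G2, a ubiquitin-conjugating enzyme of the ER, rose by 0.33 (SE 0.04) and 0.37 (SE 0.04). EIF2AK3, which encodes PERK, was at 0.04 (SE 0.06) and -0.04 (SE 0.06) and did not pass. ATF4, the transcription factor translated when PERK is active, was at -0.13 (SE 0.05, adjusted p = 0.051) and -0.12 (SE 0.05, adjusted p = 0.0473). DDIT3, the stress gene that encodes CHOP, was 5.30 ± 1.11 CPM with miR-34a-RS (SD, n = 4), 4.82 ± 0.499 with miR-34a-WT (SD, n = 5) and 3.96 ± 0.562 in control (SD, n = 5), with log2 fold changes of 0.41 (SE 0.13, adjusted p = 0.0117) and 0.29 (SE 0.12, adjusted p = 0.0629). The other PERK arm genes, also named after their values were seen, were PPP1R15A, a phosphatase subunit gene induced by stress, which rose by 0.36 (SE 0.08) and 0.28 (SE 0.08), and EIF2S1, the translation factor gene whose product PERK phosphorylates, which was at 0.11 (SE 0.05, adjusted p = 0.0885) and rose by 0.20 (SE 0.05, adjusted p = 0.00165). PPP1R15B was at -0.01 (SE 0.05) and rose by 0.20 (SE 0.05) with miR-34a-WT. Between the duplexes 2 of the 62 genes differed, named after their values were seen. PPP1R15B, a phosphatase subunit that reverses PERK signalling, was lower with miR-34a-RS by 0.22 on the log2 scale (SE 0.05, adjusted p = 0.0218), and SAR1B, the GTPase that starts the COPII coat, by 0.26 (SE 0.05, adjusted p = 0.0102).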

How the data were processed

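Libraries of polyadenylated RNA were made with TruSeq RNA v2, which does not mark strand, per the labels' protocols. The authors deposited raw read counts per gene for 14 libraries, each column matching 1 sample. STAR 2.7.11a, featureCounts of Subread 2.0.3, edgeR 3.42.4 and build GRCh38 are named in the submitters' processing notes; annotation release and strand setting are not given in the sources used here. Members whose exons overlap other genes with many reads (CRELD2, DERL1, DERL2, DERL3, DNAJB9, DNAJB11, HSP90B1, MBTPS2, PDIA6 and SYVN1) are therefore uncertain. Exons and 3′ UTRs came from GENCODE 29.

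The test was that of edgeR 4.0.16 under R 4.3.3 (TMM, filterByExpr, robust glmQLFit and glmQLFTest, 1 fit of 3 group means over all libraries), with Benjamini-Hochberg adjustment over 18321 genes at 0.05. Alternatives were DESeq2 1.42.0, other scalings, no filter, fits of 2 groups, a replicate block, removal of a 3′ UTR trend and leaving out each library. Tested on simulated data for miR-34a-WT against control, edgeR found 64% of genes altered 1.25-fold and 92% of those altered 1.5-fold. For miR-34a-RS against control it found 56% and 90%, and between the duplexes 70% and 92%. Replicates differed by more than sampling noise in all 26 pairs (chi-square per degree of freedom 2.72 to 14.3).

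Replicate numbers recur across groups. Deviations from group means correlated at 0.396 to 0.779 between same-numbered miR-34a-RS and miR-34a-WT libraries over 9901 genes. Those were taken as pairs, from the data and not the labels, in the replicate block only and not in the main test. Against control the other numbers correlated at 0.237 to 0.521 (miR-34a-RS) and 0.372 to 0.599 (miR-34a-WT) but replicate 2 at -0.057 and -0.203, so those numbers were not taken as pairs.

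The members and lists were chosen with earlier results of these data known. Values in every library are given for members called with at least 0.5 in absolute log2 fold change and for ERN1, ATF6, HSPA5 and HSP90B1. Of the other ER genes, the 6 with the smallest adjusted p and EIF2AK3, ATF4 and DDIT3 are named. The value of 1 listed marker gene is not reported here.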

Additional observations from a re-analysis of the deposited data

Results flagged for a closer look

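XBP1 differed between the duplexes, with miR-34a-RS 0.31 above miR-34a-WT on the log2 scale, by the direct test of that difference. Within groups, 7 of 114 sets of library values had a highest or lowest library set apart from the rest by Dixon's criterion, where chance gives about 1 in 20 (5.7 sets). In replicate 2, MANF was 117 CPM with miR-34a-RS (others 106) and 116 CPM with miR-34a-WT (others 101 to 103), and HERPUD1 was 53.5 CPM with miR-34a-WT (others 43.8 to 46.2). CRELD2 was 46.5 CPM in miR-34a-RS replicate 1 (others 58.2 to 59.8) and 59.7 CPM in control replicate 5 (others 51.2 to 52.3). In miR-34a-WT replicate 4, CREB3L2 was 76.7 CPM (others 85.8 to 89.4) and PDIA4 was 337 CPM (others 346 to 349).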

How the results depend on the processing

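Of the 17 member calls with miR-34a-RS against control, 11 held in all 16 other settings, and of the 17 with miR-34a-WT, 13 held in all 17. XBP1, CREB3L2, MBTPS2, EDEM1, HYOU1, CALR, PDIA6, DNAJC10 and EDEM2 held in both, and no call changed sign. With miR-34a-WT, members higher numbered 6 under the replicate block, in a comparison where same-numbered libraries correlated at 0.372 to 0.599 but replicate 2 at -0.203, and 5 with the 3′ UTR trend removed, against 3. With miR-34a-RS, the block added HSPA5, HSP90B1, DNAJB9, SEL1L, OS9 and ERO1A to the members lower and HERPUD1 to those higher, and lost none. Without the filter on low counts, ERN1, SYVN1, PDIA3 and PDIA4 were no longer called with miR-34a-RS, and HERPUD1 was called higher. Between the duplexes, members higher with miR-34a-RS numbered 0 with only the 2 groups compared, 2 with the trend removed and 0 to 1 with a library left out, and members lower 2 with the block, 1 with the trend removed and 0 to 2 with a library left out (SSR1 and ERO1B without miR-34a-RS replicate 1). Other ER genes higher numbered 1 with the block and 1 with the trend removed, against 0, and lower 6 with the block and 0 to 4 with a library left out, against 2. The cause was not tested. The count of members with an 8mer or 7mer-m8 was 5 in any annotated 3′ UTR too. At 3 CPM, DERL3 is the member whose precision depth limits most.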
